A study of Homo sapiens with 47 samples.

Results

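The hairpin of miR-335 gives 2 mature microRNAs, miR-335-3p and miR-335-5p, and both were followed here in small RNA sequencing of 2 human prostate cancer cell lines kept at graded low oxygen. They were taken by name and are 2 of the 1006 mature miRNA entries in the count table. The pair was selected on the measured fall of miR-335-3p in the hypoxia against normoxia contrast of both lines, in these same libraries. The averaged and single-level hypoxia effects of the pair are therefore given as a description without a p-value. PC-3 comes, per the labels, from a bone metastasis, and 22Rv1 from a primary tumour by way of a subline of the CWR22R xenograft. PC-3 lacks the androgen receptor, and 22Rv1 expresses it. Each line stands for 1 tumour, so the lines cannot stand for metastatic and primary disease. Cells growing in RPMI-1640 with 10% serum spent 24 h at 5, 2, 1, 0.5, 0.2 or 0% O2, and each level had its own normoxia controls in 95% air. Every group had 2 libraries, apart from the 22Rv1 control of the 0.2% level with 1, which gave 24 PC-3 and 23 22Rv1 libraries in 24 groups.

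A miRNA hairpin is cut by Drosha and Dicer into a short duplex, and one strand of it is usually loaded into an Argonaute protein while the other is degraded. Loaded strands pair with messenger RNAs mainly through the seed, the bases near the 5′ end, so the arms of one hairpin have different targets. The miR-335 hairpin lies inside MEST, an imprinted gene expressed from the paternal copy, and miR-335-5p is known as a metastasis suppressor in breast cancer, where SOX4 and tenascin C are among its reported targets.

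The mature sequences are shown because the arms behaved differently and share no seed. They run 5′ to 3′ and are RefSeq entries on GRCh38.p14, with the seed (bases 2 to 8) in capitals.
hsa-miR-335-5p: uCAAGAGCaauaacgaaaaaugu
hsa-miR-335-3p: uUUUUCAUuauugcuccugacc
The hairpin they come from is shown to place them, here with the arms in capitals, the 5p arm first.
hsa-mir-335: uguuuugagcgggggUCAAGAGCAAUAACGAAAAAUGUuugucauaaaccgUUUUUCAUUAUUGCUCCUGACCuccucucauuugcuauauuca
The hairpin of 94 bases spans chr7:130496111-130496204 on the plus strand of GRCh38.p14. The 5p arm covers chr7:130496126-130496148 (23 bases, 30.4% G or C) and the 3p arm chr7:130496162-130496183 (22 bases, 36.4% G or C). Among the 2370 human mature names in RefSeq, no other held either 7-base seed. Of the 1006 entries in the count table, 868 matched a RefSeq name and could be checked in this way. How reads of similar sequences were assigned was not checked. In the GENCODE 29 annotation of GRCh38, MEST lies on the plus strand at chr7:130486171-130506465. The hairpin falls in an intron of 13 of the 17 MEST transcripts, after exon 2 in 12 of them and after exon 3 in MEST-210, and outside the other 4. The antisense gene AC007938.2 overlaps it on the minus strand (chr7:130495794-130498427). MEST messenger RNA was not analysed here. The submitters' processing notes name hg19, so these positions describe the sequences and were not joined to the authors' alignments.

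Libraries held 1742290 to 4327382 counts in PC-3 and 960421 to 3181344 in 22Rv1. Levels are given in CPM, read counts as a share of the library total with trimmed mean of M values (TMM) scaling over all 47 libraries, and a ± value is the SD between libraries. A miRNA was called at an adjusted p under 0.05 from edgeR's quasi-likelihood test with Benjamini-Hochberg adjustment over all miRNAs tested. Nothing in the labels says that replicates came from separate cultures, and a p-value here reflects only library-to-library spread, which may be technical. The lines matched their labels: the 4 PC-3 marker miRNAs (miR-31-5p, miR-146a-5p, miR-221-3p and miR-222-3p) summed to 49523 to 60110 CPM in PC-3 and 65.6 to 133.6 CPM in 22Rv1. The 22Rv1 markers miR-375 and miR-148a-3p summed to 34308 to 93576 CPM in 22Rv1 and 623 to 1363 CPM in PC-3. The hypoxia-induced miR-210-3p averaged 667 CPM in normoxia and 1075 CPM in hypoxia in PC-3, against 1153 and 2376 CPM in 22Rv1. Both PC-3 libraries of replicate 1 at the 5% level, hypoxia and control, stood apart, with a summed stromal or muscle marker level of 1408 and 1478 CPM against 22.7 to 46.3 CPM in the other 22 PC-3 libraries, nearly all of it miR-143-3p (up to 1446 CPM). The miR-335 arms were not unusual there, at 557 and 551 CPM for miR-335-3p and 254 and 297 CPM for miR-335-5p. In 22Rv1 the stromal or muscle marker sum was 115 to 262 CPM in normoxia. It reached 534 CPM in replicate 1 of 0.5% hypoxia and 55.4 CPM in replicate 1 of 5% hypoxia. In 22Rv1 the replicates of the 5% normoxia control and of 0.2% hypoxia differed most over all miRNAs (chi-square per degree of freedom 233 and 205, against 22.8 to 92.2 in the other groups of both lines). Leaving out each of these 4 libraries in turn gave a mean hypoxia effect on miR-335-3p in 22Rv1 of log2 -0.36 to -0.31.

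Both arms were well detected in every library, with miR-335-3p the more abundant arm throughout. The 3p arm had 773 to 6847 counts per library and the 5p arm 313 to 2694, so counting error alone gave a coefficient of variation of 1.21 to 3.60% and 1.93 to 5.65%. By mean normoxia level, miR-335-3p ranked 94 of the 1006 entries in PC-3 and 52 in 22Rv1, and miR-335-5p ranked 132 and 104. Fewer cells carrying a miRNA and less of it per cell cannot be told apart in such bulk RNA.

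In normoxia both arms were higher in 22Rv1, and the difference was much larger for miR-335-3p. The 11 22Rv1 normoxia libraries held 1624 to 1875 CPM of miR-335-3p (median 1787), against 514 to 706 CPM (median 554) in the 12 of PC-3. The groups did not overlap for the 3p arm, the lowest 22Rv1 library lying above the highest PC-3 library. In the test over all 24 groups, miR-335-3p was 3.08-fold higher in 22Rv1 (PC-3 minus 22Rv1, log2 -1.62, SE 0.068, adjusted p = 7.46e-23 by edgeR). For miR-335-5p the 22Rv1 libraries held 264 to 474 CPM (median 418) and those of PC-3 247 to 365 CPM (median 271). These ranges overlapped, and the 5p arm was 1.44-fold higher in 22Rv1 (log2 -0.53, SE 0.091, adjusted p = 1.9e-06 by edgeR). A line difference was common in this comparison: 527 of 613 miRNAs tested (86%) were called, and 284 (46.3%) were lower in PC-3. The size of the difference depended on the scaling, as library size alone moved it to log2 -2.08 for the 3p arm and -0.98 for the 5p arm, while the median of all miRNAs went from -0.15 to -0.60. Relative to that median the 3p difference was -1.47 with TMM and -1.48 with library size alone, and the 5p difference was -0.37 with both. The blood or serum marker list also differed between the lines, at 221 to 399 CPM in PC-3 and 804 to 2647 CPM in 22Rv1. Nearly all of it was miR-486-5p, while miR-451a stayed at 5.75 CPM or less, and its part in the line difference was not tested.

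The ratio of the arms within a library needs no scaling between libraries, and it separated the lines completely in normoxia. The 3p count divided by the 5p count was 2.04 ± 0.134 in PC-3 (range 1.82 to 2.25, n = 12) and 4.47 ± 0.720 in 22Rv1 (range 3.83 to 6.23, n = 11). Every 22Rv1 control thus had a higher ratio than any PC-3 control. How many other hairpins separate the lines in this way is not given. The log2 ratio was 1.12 lower in PC-3 (log2 -1.12, SE 0.070, a 2.17-fold difference in the ratio), with a permutation p = 2e-05, the smallest that 100000 resamples can give. A ratio of counts is not a ratio of molecules, since recovery can differ between sequences, but the same 2 sequences were compared in both lines.

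**Figure D1:**
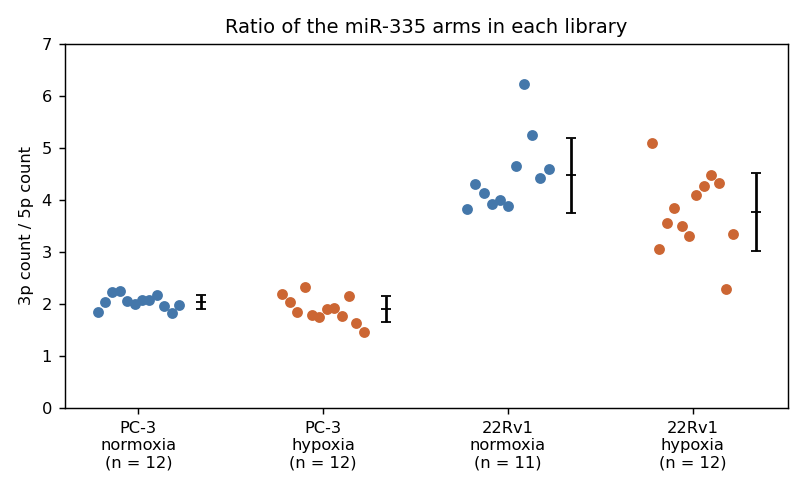
Ratio of the miR-335-3p count to the miR-335-5p count in each library (points), by line and condition, with the group mean and SD beside the points. PC-3 libraries lie near 2 in both conditions (2.04 in normoxia, 1.90 in hypoxia), and 22Rv1 normoxia libraries lie between 3.83 and 6.23, above every PC-3 library.

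Among the 60 hairpins with both arms at 20 CPM or more in each line, the log2 ratio of 3p to 5p differed between the lines by a median of 0.17 (PC-3 minus 22Rv1). Arms were paired by name, so pairs whose 5p arm can come from a second locus, such as miR-181a and let-7a, can mix loci. The value of miR-335 was the lowest of the 60, that is, the shift furthest toward the 5p arm in PC-3, with miR-106b almost level with it at log2 -1.12. By absolute size miR-335 ranked 4 of 60, and the largest shifts ran the other way, 2.44 for miR-193a and 2.36 for miR-181a. A line difference in arm ratio was therefore not peculiar to miR-335 among these hairpins.

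**Figure D2:**
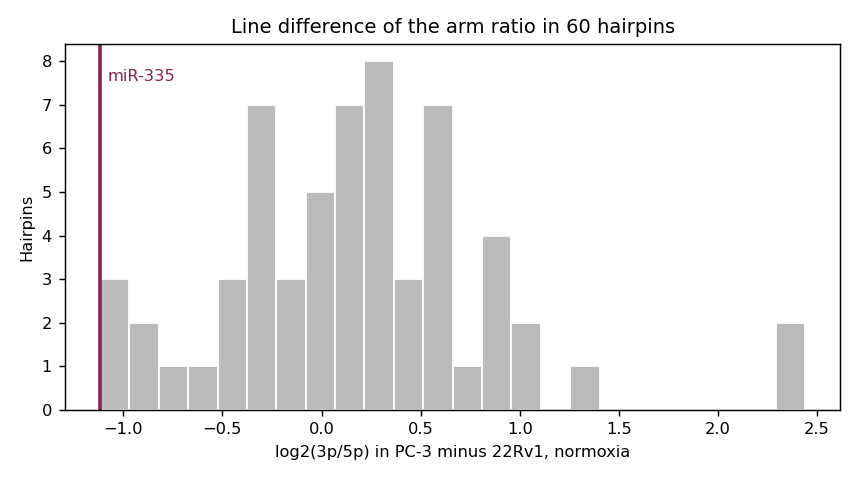
Number of hairpins (y axis) by the difference in log2(3p/5p) between PC-3 and 22Rv1 in normoxia (x axis), for 60 hairpins with both arms detected, with miR-335 marked by the vertical line. miR-335 stands at the lower end at -1.12, and the far right bar holds miR-193a and miR-181a.

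In hypoxia miR-335-3p was lower than in normoxia in both lines, and with TMM scaling most libraries lay outside the normoxia range. PC-3 hypoxia libraries held 432.5 to 643 CPM (median 475), with a mean of 488 ± 60.2 CPM (n = 12) against 577 ± 60.6 CPM in normoxia (n = 12). In 22Rv1 they held 1082 to 1786 CPM (median 1481), with an SD of 236 CPM (n = 12) around the mean, against 1768 ± 87.1 CPM in normoxia (n = 11). In each line 10 of the 12 hypoxia libraries lay below the lowest normoxia library, and the other 2 lay within the normoxia range. The arm was chosen on this fall, and the share of all miRNAs that lay apart as far is not given. With library size alone, the lowest 22Rv1 control was replicate 1 at 5% (1334 of 960421 counts). Most 22Rv1 hypoxia libraries then lay above that control, so the separation in 22Rv1 depended on the scaling. Set against the control with the same replicate number, the hypoxia library was lower in 11 of 12 PC-3 pairs and 10 of 11 22Rv1 pairs. In 22Rv1 the numbers were not taken as a pairing, so its pair counts here and below follow the labels only.

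Averaged over the 6 levels, the fitted effect on miR-335-3p was log2 -0.23 (SE 0.060, 0.850-fold) in PC-3 and -0.33 (SE 0.060, 0.795-fold) in 22Rv1. The difference between the lines in this average was 0.078 (SE 0.094, PC-3 minus 22Rv1), smaller than its standard error. Ordered from the lowest effect, miR-335-3p stood 53rd of 463 miRNAs in PC-3 and 63rd of 552 in 22Rv1, while the median effect of all was -0.0044 and 0.011. In PC-3, 51 of the 463 (11%) were called and 24 (5.18%) were lower in hypoxia, and in 22Rv1 75 of the 552 (13.6%) were called and 33 (5.98%) were lower. The PC-3 count of 51 rose to 109 when the replicate number entered the fit as a block. Without the 2 PC-3 libraries that stood apart in stromal markers, the effect on the 3p arm was -0.25.

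Averaged over the levels, the fitted hypoxia effects on miR-335-5p were smaller, and its groups overlapped. In PC-3 the hypoxia libraries held 210 to 294 CPM (median 261), a mean of 259 ± 24.9 CPM against 283 ± 32.7 CPM in normoxia (n = 12 each). In 22Rv1 they held 321 to 578 CPM (median 362), with an SD of 76.1 CPM (n = 12), against 403 ± 60.8 CPM in normoxia (n = 11). Of the 12 hypoxia libraries, 3 in PC-3 and none in 22Rv1 lay below the lowest control, and 2 in 22Rv1 lay above the highest. The fitted effect was log2 -0.12 (SE 0.060) in PC-3 and -0.076 (SE 0.10) in 22Rv1, ranks 105 of 463 and 184 of 552 from the lowest. Pairs with the hypoxia library lower numbered 11 of 12 in PC-3 and 7 of 11 in 22Rv1.

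**Figure D3:**
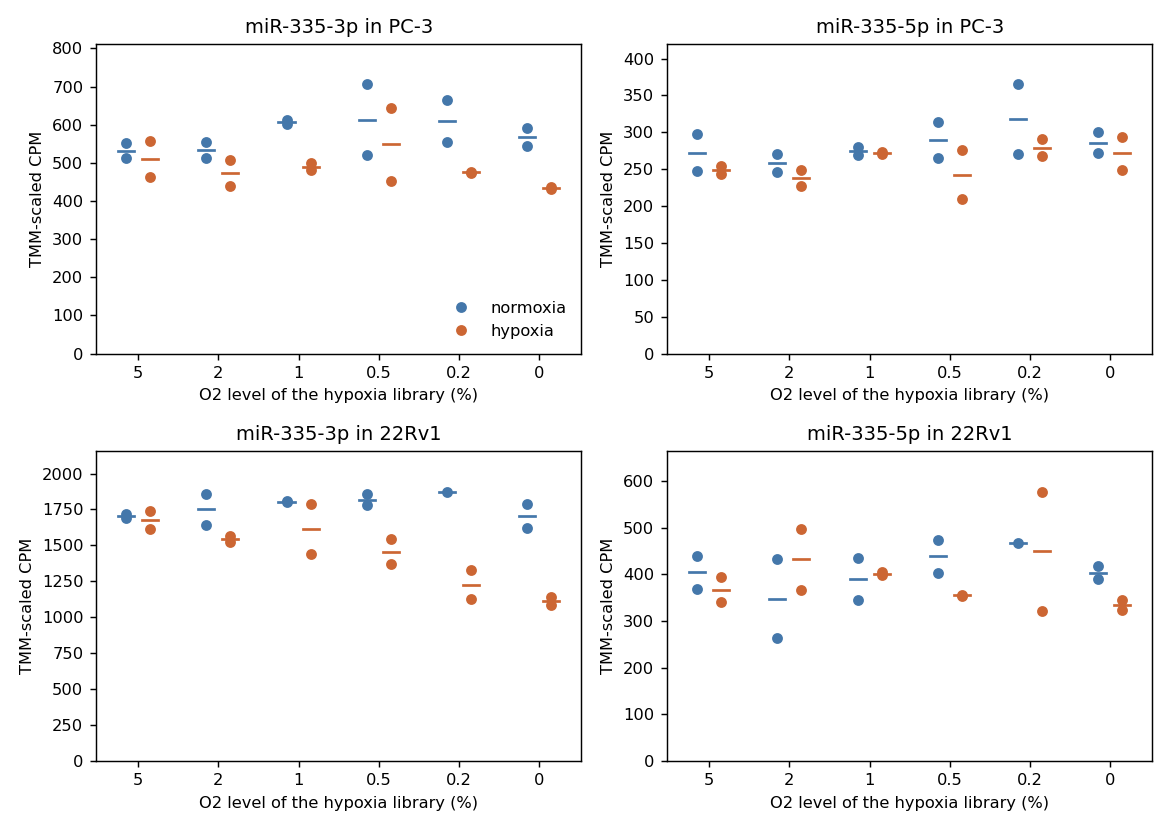
TMM-scaled CPM (y axes from 0) of miR-335-3p (left) and miR-335-5p (right) in each library (points) of PC-3 (top) and 22Rv1 (bottom), by O2 level, with horizontal bars at the group means. The 22Rv1 miR-335-3p points in hypoxia lie between 1082 and 1786 CPM, lowest at 0.2 and 0% O2, while the miR-335-5p points of the conditions overlap at every level but 0.5 and 0% in 22Rv1.

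By oxygen level, miR-335-3p in 22Rv1 was closest to its controls at 5% and, with TMM scaling, furthest below them at 0.2 and 0%. At 5% O2 the hypoxia libraries held 1737 and 1617 CPM and the controls 1689 and 1721 CPM. At 2% they held 1524 and 1567 CPM against 1859 and 1643 CPM. At 1% they held 1439 and 1786 CPM against 1799 and 1811 CPM. The 5% groups overlapped, whereas at 2% and 1% both hypoxia libraries were below both controls. At 0.5% the values were 1367 and 1542 CPM against 1858 and 1778 CPM. At 0.2% they were 1123 and 1327 CPM against the single control of 1875 CPM, and at 0% they were 1138 and 1082 CPM against 1624 and 1787 CPM. Both hypoxia libraries were again below every control of their level. The fitted effects at 5, 2, 1, 0.5, 0.2 and 0% were log2 -0.11, -0.22, -0.12, -0.34, -0.58 and -0.62 (SE 0.14 each, 0.17 at 0.2%). At 0% O2 this was 0.650-fold of the control. With library size alone they were -0.045, -0.0995, -0.22, -0.72, -0.50 and -0.78, so the order of 0.5% and 0.2% depended on the scaling. Leaving out either hypoxia library moved the 0.2% effect to -0.46 or -0.70.

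Ordered by their mean, the 22Rv1 hypoxia groups ran from 1677 CPM at 5% through 1613 at 1%, 1546 at 2%, 1454 at 0.5% and 1225 at 0.2% to 1110 CPM at 0%. Libraries of neighbouring groups in this order overlapped, except between 0.5% and 0.2%. The linear trend over the ordered levels weights them so that their average, which chose the arm, cancels. With a single control at 0.2% in 22Rv1, the trend and the average are still not fully independent. The p-values of the 22Rv1 trend of this arm are therefore read as a description. This trend was log2 -0.11 per step toward lower O2 (SE 0.035). In the edgeR test this had an unadjusted p of 0.0049 and an adjusted p = 0.338 over 552 miRNAs, of which 1 (0.181%) was called for a trend. DESeq2 gave an adjusted p of 0.0231, and the alternatives tried ranged from 0.0231 to 0.910, so whether the trend passed depended on the method. The spread between libraries of miR-335-3p was 4.93% of the mean in 22Rv1 normoxia and 16.4% in hypoxia, where levels of O2 are pooled.

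In PC-3 the 3p arm overlapped with its controls at 5 and 0.5% and lay below both of them at 2, 1, 0.2 and 0%. At 5% O2 the hypoxia libraries held 557 and 462 CPM and the controls 551 and 514 CPM. At 2% they held 508 and 439 CPM against 554 and 514 CPM. At 0.5% they held 643 and 454 CPM against 706 and 521 CPM. The 5% and 0.5% groups overlapped, and at 2% the hypoxia libraries lay just below both controls. At 1% the values were 500.1 and 480.3 CPM against 602 and 612 CPM. At 0.2% they were 476 and 474 CPM against 555 and 665 CPM, and at 0% they were 435.9 and 432.5 CPM against 543.2 and 592.6 CPM. At these 3 levels the hypoxia libraries lay close together and clear of the controls. The fitted effects at 5, 2, 1, 0.5, 0.2 and 0% were log2 -0.059, -0.20, -0.29, -0.17, -0.31 and -0.36 (SE 0.15 each). At 0.5% both libraries of replicate 1 were higher than both of replicate 2, and within each pair the hypoxia library was lower (0.912 and 0.870 of its control). Leaving out 1 library breaks a pair, and the effect then ran from -0.43 to 0.050.

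Ordered by their mean, the PC-3 hypoxia groups ran from 548 CPM at 0.5% through 509 at 5%, 490.2 at 1%, 475 at 0.2% and 473 at 2% to 434 CPM at 0%. Neighbouring groups in this order overlapped, except 1% with 0.2% and 2% with 0%. The trend of miR-335-3p was log2 -0.050 per step (SE 0.035, adjusted p = 0.995 by edgeR, 1 of 463 miRNAs or 0.216% called, and 3 with the replicate block). The difference in trend between the lines, a comparison added after the data were seen, was 0.069 per step (SE 0.055, adjusted p = 0.9999 by edgeR). The steeper slope of miR-335-3p in 22Rv1 was thus not separated from that in PC-3.

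**Figure D4:**
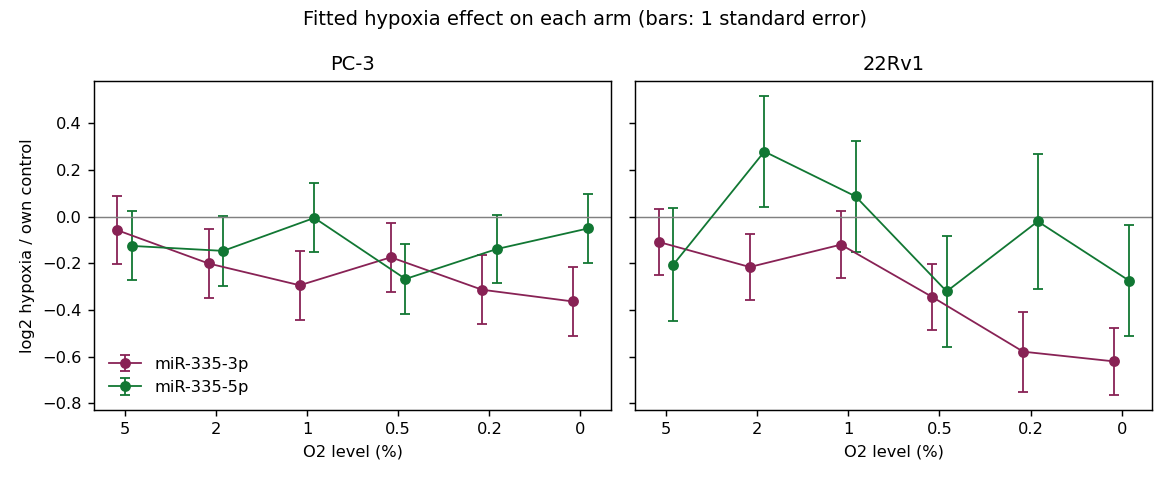
Fitted log2 ratio of hypoxia to the control of the same level (y axis) for each arm at each O2 level (x axis), in PC-3 (left) and 22Rv1 (right), with bars of 1 standard error. In 22Rv1 miR-335-3p reaches -0.62 at 0% O2, while miR-335-5p moves on both sides of 0, from -0.32 to 0.28.

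The fitted effects on miR-335-5p lay on both sides of 0 in 22Rv1 and below 0 at each level in PC-3. In 22Rv1 its hypoxia libraries averaged more than the controls at 2% (497 and 367 CPM against 432.4 and 264 CPM) and at 1% (405 and 398 CPM against 435 and 345 CPM). They were lower at 0.5% (355 and 356 CPM against 474 and 403 CPM) and at 0% (344 and 324 CPM against 418 and 389 CPM). At 5% they held 340.0 and 395 CPM against 440.5 and 369 CPM. The groups overlapped at 5, 2 and 1% and were apart at 0.5 and 0%. The fitted effects were log2 -0.21, 0.28, 0.087, -0.32 and -0.27 at 5, 2, 1, 0.5 and 0% (SE 0.24 each). Those at 5 and 2% lay further from 0 than those of the 3p arm. The 2% effect became 0.65 without the control at 432.4 CPM, and the 0.5% effect was -0.70 with library size alone. The 0.2% level held the lowest and the highest hypoxia library of the line, 321 and 578 CPM, against a single control of 468 CPM. Its fitted effect of log2 -0.021 (SE 0.29) became -0.50 without the library at 578 CPM and 0.34 without the one at 321 CPM.

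In PC-3 the miR-335-5p libraries at 1% O2 held 270.2 and 273 CPM against 269.7 and 281 CPM, and those at 0% held 249 and 294 CPM against 271 and 300.2 CPM. At 0.5% they held 276 and 209.7 CPM against 314 and 265 CPM. The libraries of hypoxia and control intermixed at these levels. At 5% the values were 254 and 243 CPM against 297 and 247 CPM, and at 2% they were 249.6 and 227 CPM against 271 and 247 CPM. At 0.2% they were 268 and 290.4 CPM against 270.5 and 365 CPM. The groups overlapped at each of the 6 levels. The fitted effects at 5, 2, 1, 0.5, 0.2 and 0% were log2 -0.13, -0.15, -0.0058, -0.27, -0.14 and -0.051 (SE 0.15 each). Those at 5 and 0.5% lay further from 0 than those of the 3p arm. Leaving out 1 library moved the 0.5% effect to between -0.46 and -0.11 and the 0.2% effect to between -0.36 and 0.068. The trend of miR-335-5p per step was log2 0.0039 in PC-3 (adjusted p = 0.995 by edgeR) and -0.047 in 22Rv1 (SE 0.059, adjusted p = 0.884 by edgeR).

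The ratio of the arms was also lower in hypoxia on average. It was 1.90 ± 0.248 in PC-3 (range 1.47 to 2.33, n = 12) and 3.77 ± 0.748 in 22Rv1 (range 2.30 to 5.10, n = 12). Both ranges overlapped with normoxia. The log2 ratio was lower than in the controls by a mean of 0.11 in PC-3 (log2 -0.11, lower at 4 of 6 levels) and of 0.25 in 22Rv1 (log2 -0.25, lower at 5 of 6 levels). Replicate pairs had the lower ratio in hypoxia in 9 of 12 cases in PC-3 and 10 of 11 in 22Rv1. At 0% O2 the shift was -0.31 in PC-3 and -0.35 in 22Rv1, and the most negative value was -0.52 in 22Rv1 at 2%. Among the 60 hairpins, the average shift of miR-335 ranked 14th from the lowest in PC-3 and 11th in 22Rv1, so other hairpins moved further toward the 5p arm. These values share the counts that chose the arms and carry no test.

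The 6 normoxia control sets, which should not differ by treatment, show how far the arms vary between sets. The log2 means of miR-335-3p spanned 0.21 in PC-3 and 0.044 in 22Rv1, and those of miR-335-5p spanned 0.24 and 0.38. Of all miRNAs tested by edgeR, 0 of 463 in PC-3 (0%) and 0 of 552 in 22Rv1 (0%) were called between control sets, with 13 and 3 at an unadjusted p under 0.05, and DESeq2 called 2 and 0. With library size alone the 3p span in 22Rv1 was 0.28, so its size beside the hypoxia effects depended on the scaling. In PC-3 the 3p span was of the size of several hypoxia effects.

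Whether the arms moved together from library to library was asked within each line and condition, 4 relations in all. In PC-3 normoxia the log2 CPM of the arms were correlated, with Pearson's r = 0.81 (permutation p = 0.0016, adjusted 0.0064) and Spearman's rho = 0.77 (permutation p = 0.0048, adjusted 0.019) over 12 libraries. Without the 2 libraries furthest from the median of the 5p arm, r was 0.66. In PC-3 hypoxia r was 0.25 (permutation p = 0.44, adjusted 0.44) and rho 0.23 (permutation p = 0.47, adjusted 0.47), and r was -0.019 without the 2 furthest. In 22Rv1 normoxia r was 0.52 (permutation p = 0.092, adjusted 0.18) and rho 0.46 (permutation p = 0.15, adjusted 0.31) over 11 libraries, and r was 0.46 without the 2 furthest. In 22Rv1 hypoxia r was 0.25 (permutation p = 0.44, adjusted 0.44) and rho 0.36 (permutation p = 0.26, adjusted 0.34), and r was 0.66 without the 2 furthest, which include the library with 578 CPM of miR-335-5p. With scaling by library size alone, r in 22Rv1 was 0.70 in normoxia and 0.66 in hypoxia, with adjusted permutation p of 0.033 and 0.031. The relation between the arms in 22Rv1 therefore changed with the scaling, and that of PC-3 normoxia was the only one of the 4 to pass under TMM.

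**Figure D5:**
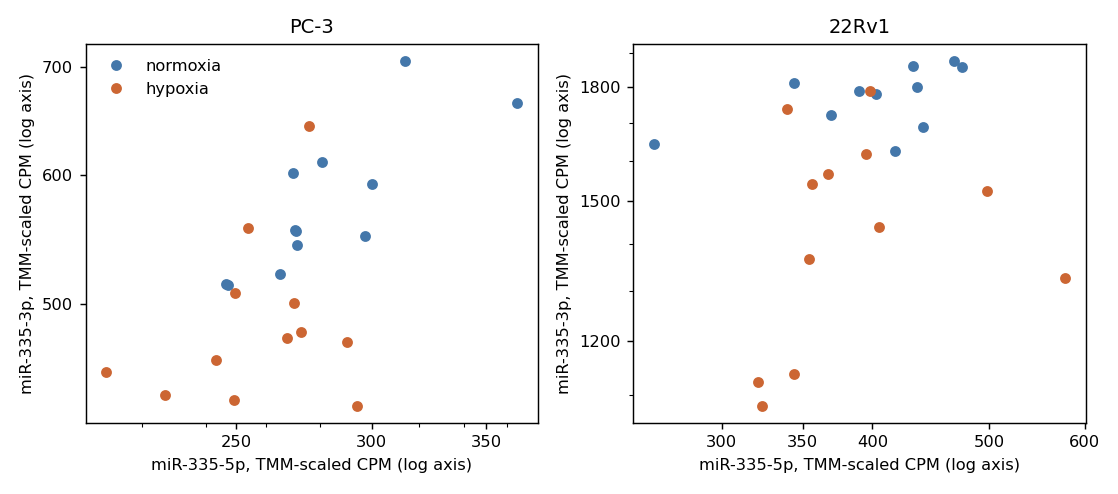
miR-335-3p against miR-335-5p in TMM-scaled CPM (both axes log) for each library of PC-3 (left) and 22Rv1 (right), coloured by condition. PC-3 normoxia libraries rise together (r = 0.81), and 1 22Rv1 hypoxia library lies furthest to the right, at 578 CPM of miR-335-5p.

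The miRNAs with the pattern most like each arm were found by Pearson's r of log2 CPM over all 47 libraries, centred within line, among 246 other miRNAs with at least 20 CPM in each line. These libraries share their scaling and include both conditions, so r is a description. For miR-335-3p they were miR-20a-5p (r = 0.67), a member of the miR-17/92 cluster, miR-1285-3p (0.67), miR-191-3p (0.67), miR-32-3p (0.63) and miR-128-1-5p (0.62), against a median of 0.038 over all 246. miR-20a-5p averaged 2050.3 CPM in PC-3 normoxia and 1965 CPM in 22Rv1 normoxia, so it did not share the line difference of miR-335-3p. For miR-335-5p they were miR-590-3p (0.61), miR-93-3p, miR-106b-5p and miR-3065-5p (0.45 each) and miR-15a-5p (0.44), against a median of 0.053. Over both lines, the other arm of miR-335 stood below all of the 3p arm's nearest miRNAs, with r = 0.40. In PC-3 alone its r was 0.63, above the 0.45 to 0.60 of those miRNAs. In 22Rv1 alone it was 0.28, below their 0.64 to 0.78. The nearest miRNAs of the arms were 10 different entries.

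Most neighbours of MEST on 7q32 differed between the lines in the opposite direction to miR-335. Of 11 entries of that region in the table (miR-29a, miR-29b-1, miR-96, miR-182, miR-183 and miR-129), 10 were higher in PC-3 in normoxia and 1, miR-129-5p, was lower (log2 -3.74), with a median of 2.15 against -0.15 over all miRNAs tested. In this comparison 86% of all miRNAs tested were called, and 46.3% were lower in PC-3. miR-29a-3p, which targets collagen messages and whose hairpin starts 380.6 kb from that of miR-335, averaged 6034 CPM in PC-3 and 193 CPM in 22Rv1 (log2 4.96). The hairpin of miR-182, 726 kb away, gave 91141 CPM of miR-182-5p in PC-3 and 58952 CPM in 22Rv1 (log2 0.65). miR-29b-3p and miR-129-5p can each come from a second locus. In hypoxia 1 of the 10 tested in PC-3 fell, miR-29b-1-5p (log2 -0.34, SE 0.073, adjusted p = 0.00197 by edgeR, the other 9 not passing), and 0 of the 10 in 22Rv1 were called by edgeR, 0 of them at an unadjusted p under 0.05 and 0 by DESeq2. DESeq2 called 2 of the 10 in PC-3. Of all miRNAs tested, edgeR called 11% in PC-3 and 13.6% in 22Rv1, so these counts were near the general share. The group medians were -0.0039 in PC-3 and 0.099 in 22Rv1, beside -0.0044 and 0.011 over all miRNAs.

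miR-126 has been reported beside miR-335 as a metastasis suppressor in breast cancer. Both of its arms were higher in PC-3 in normoxia, by log2 0.72 for miR-126-3p and 0.54 for miR-126-5p, the opposite direction to the miR-335 arms. In hypoxia miR-126-5p rose in 22Rv1 (log2 0.44, adjusted p = 0.021 by edgeR), miR-126-3p in 22Rv1 was at 0.25, and neither arm passed in PC-3 (log2 0.038 and 0.039). A fixed list of miRNAs from other imprinted loci had 19 entries in the table, most at low levels. It covered mainly the DLK1-DIO3 cluster and the IGF2 miRNA miR-483. Between the lines in normoxia 9 could be tested: 6 were higher in PC-3, both arms of miR-483 were lower (0.030 against 35.7 CPM for miR-483-3p and 0.26 against 73.4 CPM for miR-483-5p), and miR-127-3p did not pass. The share called over all miRNAs was 86%. In hypoxia edgeR called 0 of the 7 listed entries tested in PC-3 and 0 of the 3 tested in 22Rv1. Of these, 2 and 1 were at an unadjusted p under 0.05, and DESeq2 called 0 in either line. With 11% and 13.6% of all miRNAs called by edgeR, so few entries cannot show a difference from the rest. The list was not complete, as miR-369-3p and both arms of miR-1247, also from the DLK1-DIO3 region, were left out. In PC-3 hypoxia miR-1247-3p fell (log2 -1.58, adjusted p = 5.79e-06 by edgeR). The other left-out entries, miR-1247-5p (log2 -0.29) and miR-369-3p (log2 -0.17), did not pass there.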

How the data were processed

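The deposited table used here holds whole-number counts of reads per mature miRNA, made by the authors, and a second deposited table holds the authors' CPM, which equalled the counts times 1 constant per library (largest relative deviation 2.56e-09). Per the submitters' processing notes, read quality was checked with FastQC and the genome was hg19. Names of the aligner and counter were not given in the sources used here. Per the labels' protocols, libraries were made from total RNA with the TruSeq Small RNA kit.

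The members and the lists were chosen with earlier results of these data known. Counts were fitted with edgeR 4.0.16 in R 4.3.3 (robust quasi-likelihood, TMM, 1 mean per group) for miRNAs that reached 5 CPM in 2 or more libraries (463 in PC-3, 552 in 22Rv1, 613 over both), with Benjamini-Hochberg adjustment over all of them. The named genes were both arms, the 5 miRNAs most correlated with each, entries sharing a seed, and members of 3 lists. Contrasts were the mean effect, the single levels, the trend, the control sets and the lines in normoxia. Levels in CPM use 1 scaling over both lines. The single 22Rv1 control at 0.2% was assumed to vary like the other groups. Arm ratios and correlations used two-sided permutation tests with 100000 resamples. Sequences are from RefSeq, where 868 of the 1006 names matched. In PC-3 the numbers paired the samples: deviations of same-numbered libraries correlated at 0.293 to 0.658 in 6 of 6 pairs. The main fit, its standard errors and its counts of calls did not use this pairing, and the replicate block was run as an alternative. Replicates differed by more than counting error (chi-square over its degrees of freedom, 22.8 to 233). Counts were also simulated with the same spread for every miRNA and group and with no pairing of replicates. There false calls made up 4.08% of calls for the PC-3 mean effect (456 miRNAs), 6.92% for that of 22Rv1 (545) and 9.23% for the lines in normoxia (567), the last 2 above the threshold of 5%. The data are less even than this, so these rates need not hold for them. Alternatives were DESeq2 1.42.0, other scalings and filters, the replicate block and leaving out libraries.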

Additional observations from a re-analysis of the deposited data

How the results depend on the processing

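With 2 libraries per group, the effect at a single O2 level rests on few libraries, and the 22Rv1 control at 0.2% could not be left out because it has no second library. Single levels aside, the results on the arms stayed on their side of the threshold, or where untested within 1 SD between replicates, under 150 alternatives and in the 575 omissions of 1 library run. The mean effect on miR-335-3p ran from log2 -0.28 to -0.20 in PC-3 and from -0.39 to -0.31 in 22Rv1 over these. They moved under 4 alternatives, in 22Rv1: the adjusted p of the trend of miR-335-3p was 0.0475 by edgeR with the replicate block (log2 -0.12) and 0.0231 with DESeq2 (-0.11), and the correlation of the arms was 0.70 in normoxia and 0.66 in hypoxia with library size only. The adjusted p of that trend ran from 0.18 to 0.614 by edgeR when 1 library was left out. For the untested effects, leaving out 1 library changes an average over 6 levels little by design. The tolerance was also wide: for miR-335-5p in 22Rv1 the SD was 0.28, against a mean effect of log2 -0.076. The line difference of that arm's mean effect, log2 -0.063, ran from -0.13 to 0.0052 in the omissions and still counted as staying. Effects at single levels moved by more than 1 SD under 6 of 180 alternatives, all in 22Rv1, and in 13 of 552 omissions; the replicate block gave -0.71 for miR-335-3p and -0.51 for miR-335-5p at 0.2% in 22Rv1. Same-numbered 22Rv1 libraries deviated together in 4 of 5 pairs (r from 0.0798 to 0.328), so there the numbers were not taken as a pairing. Counts of called miRNAs moved more. The replicate block raised the mean effect from 51 to 109 in PC-3 and from 75 to 164 in 22Rv1, and the trend from 1 to 3 and from 1 to 17, and it changed no other call on the arms. For the trend in PC-3, the authors' factors gave 2, a 20 CPM filter 0, the set without both PC-3 libraries of replicate 1 at 5% O2 (chosen after seeing the data) 0, and leaving out 1 library 0 to 3. For the trend in 22Rv1, library size only gave 0, the authors' factors 3, no filter 2, a 20 CPM filter 2, DESeq2 4, and leaving out 1 library 1 to 8. Library size only gave 46 for the mean effect in 22Rv1. Between control sets DESeq2 gave 2 in PC-3, and leaving out 1 library 0 to 1 in PC-3 and 0 to 2 in 22Rv1. The cause of these changes was not tested.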
